A study of Mus musculus with 10 samples.

Results

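The genes described here are the fibrillar and other collagens outside the basement membrane. They were taken as every gene on the array whose symbol has the form Col, a number, a and a number, leaving out the Col4a genes, Col15a1 and Col18a1. Of 18193 genes with a probe set named for 1 gene, 34 met this rule, and 67 probe sets stood for them. The probe set with the highest mean over the 10 arrays represented each gene. A gene was tested where that mean was at least 54.06 signal units, the 40th percentile of all probe sets, which kept 28 of the 34 collagens and 13444 genes in all. Col24a1, Col12a1, Col6a4, Col6a5, Col10a1 and Col17a1 were under that level and were not tested. Col12a1, with a mean of 50.3, lay just under it, and Col14a1, with 57.8, and Col5a3, with 58.1, lay just over it.

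Whole-lens RNA of each sample was measured on 1 Affymetrix mouse 430 2 array. The groups were PN56 (postnatal day 56) lenses labelled Klf4CN, for Klf4-conditional null (2 arrays), PN56 wild-type (WT) lenses (2 arrays), embryonic day 16.5 (E16.5) lenses labelled Klf4CN (3 arrays) and E16.5 WT lenses (3 arrays). Each PN56 sample pooled the lenses of 3 young adults and each E16.5 sample those of 5 embryos, in independent preparations per the labels, so the spread between arrays is that between pools. The labels name neither the Cre line that removes Klf4 nor the part of the gene removed. The number of arrays limits the precision of every value below.

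Collagens are secreted as trimers whose chains wind into a triple helix. Fibrillar collagens (types I, II, III, V and XI among them) align into the banded fibrils of skin, cornea, sclera, cartilage and vitreous. FACIT collagens, such as type IX, sit on the surface of fibrils, type VI forms beaded microfibrils, type VIII forms the sheets of the corneal endothelium's Descemet membrane, type VII anchors epithelia, and types XIII, XVII, XXIII and XXV span the cell membrane. The lens capsule itself is a basement membrane built on type IV collagen. The embryonic lens is wrapped by hyaloid vessels that regress after birth, and the neighbouring ciliary epithelium and retina are sources of vitreous collagens.

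The arrays carried the lens signature their labels give: Cryaa, the alpha-A crystallin, had signals of 64425 and 63472 in PN56 lenses labelled Klf4CN and 93649 and 99905 in PN56 WT lenses, and 15227 to 20669 and 20822 to 24306 in the E16.5 groups. Klf4 was not lower in lenses labelled Klf4CN: at PN56 its signals were 732 and 702 there, against 156.5 and 213.5 in WT (log2 difference 1.88, limma adjusted p = 0.0042), and at E16.5 1360, 805 and 1072, against 774.5, 1015 and 428. Whether its probe set lies in the removed part is not stated, and one outside it checks nothing, so every direction below is that of the lenses labelled Klf4CN. The median signal of an array was 91.0 to 108.6 at PN56 and 63.0 to 76.9 at E16.5. The poly-A spike dap, added to RNA before labelling, was 2.6 to 59.1 on the PN56 arrays and 4908 to 7005 on the E16.5 arrays, so age and preparation cannot be told apart. The 18S ribosomal RNA control (5' part) also differed by genotype, with 5700 and 11005 in PN56 lenses labelled Klf4CN against 528 and 2870 in WT, and 20897 to 22776 against 1155 to 2413 at E16.5. PN56 Klf4CN replicate 2 stood apart on the B1 repeat control, at 47064 against 986 to 4987 on the other PN56 arrays. Whether these controls bear on the collagen values was not tested.

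**Figure D1:**
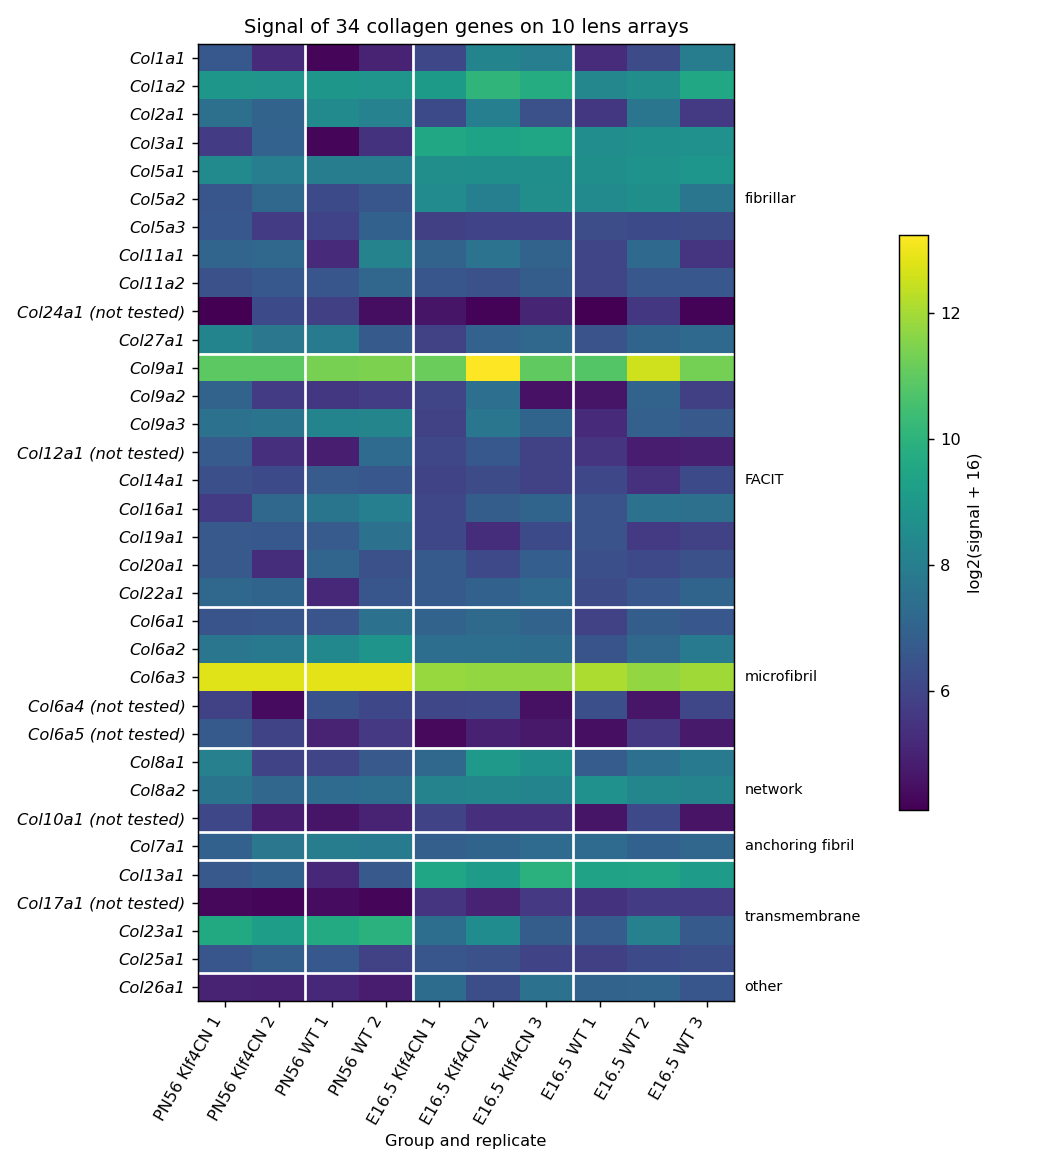
Log2(signal + 16) of the 34 collagens (rows, grouped by class) on the 10 arrays (columns, by group and replicate), with 6 genes under the filter marked as not tested. Col3a1, Col5a2 and Col13a1 are darker on all 4 PN56 arrays than on any E16.5 array, Col23a1 and Col6a3 are brighter, and Col9a1 stands out on replicate 2 of both E16.5 groups.

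The comparison of ages asked which of these collagens differ between the adult and the embryonic lens. Between PN56 and E16.5, 8 of the 28 tested collagens were called in lenses labelled Klf4CN, 3 higher and 5 lower (limma, Benjamini-Hochberg adjusted p under 0.05), where 53.1% of all 13444 genes were called, 22.3% higher and 30.8% lower. In WT lenses 13 were called, 7 higher and 6 lower, where 56.7% of all genes were called, 25.8% higher and 30.9% lower. The share of collagens called was thus below that of all genes in both genotypes at this filter, with no test of that difference. With the filter at the 60th percentile, 6 of 11 collagens were called in lenses labelled Klf4CN and 8 of 11 in WT. The share of all genes at that filter is not given here. The median log2 difference of the tested collagens was -0.08 in lenses labelled Klf4CN and 0.29 in WT lenses, beside -0.10 and -0.04 over all genes. The groups did not overlap for 6 collagens higher and 9 lower in lenses labelled Klf4CN (31.3% and 39.2% of all genes) and for 9 higher and 8 lower in WT lenses (34% and 37.1%). With each array centred on its median, the all-gene shift was -0.44 in lenses labelled Klf4CN and -0.55 in WT, and the collagens called were 2 higher and 9 lower in lenses labelled Klf4CN, and 4 higher and 9 lower in WT. Quantile normalization gave 2 higher and 5 lower in lenses labelled Klf4CN, and 5 higher and 8 lower in WT. The age comparisons in the 2 genotypes have no arrays in common, but both took their measure of spread from the same fit of all 10 arrays.

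Among the fibrillar collagens, Col3a1 and Col5a2 fell in both genotypes and Col5a1 in WT. Col3a1 encodes the chain of type III collagen, the fibril of vessel walls and loose connective tissue. Its signal was 36.3 and 109 in PN56 lenses labelled Klf4CN, against 733.5, 658 and 706 at E16.5. In WT it was 3.3 and 27.7 at PN56, against 371, 395.5 and 414 at E16.5. All 4 adult arrays were thus below all 6 embryonic arrays. Both PN56 WT signals, and 36.3 in PN56 lenses labelled Klf4CN, lay under the filter level and cannot be told from background here. The log2 difference was -3.14 ± 0.39 in lenses labelled Klf4CN (SE; limma adjusted p = 2.76e-05) and -3.82 ± 0.39 in WT (limma adjusted p = 4.94e-06). A dimmer probe set of Col3a1 fell in lenses labelled Klf4CN (-2.99, limma adjusted p = 7.94e-05), while in WT its value was -0.47 (limma adjusted p = 0.364).

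Col5a2, which encodes a chain of the type V collagen that starts and thins fibrils, is the next protein-coding gene to Col3a1 on mouse chromosome 1. It had 79.1 and 128 in PN56 lenses labelled Klf4CN, against 353, 249 and 379 at E16.5, and 55.2 and 77.4 in PN56 WT lenses, against 340.5, 388 and 191 at E16.5. The ages did not overlap in either genotype. Col5a2 fell by 1.53 on the log2 scale in lenses labelled Klf4CN (SE 0.34; limma adjusted p = 0.00232) and by 1.93 in WT (SE 0.34; limma adjusted p = 0.000424). Its other probe set fell as well (-2.79 and -2.49, limma adjusted p = 0.00014 and 0.00031).

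Col5a1, the partner chain of type V, changed less. Its signals were 345 and 240 in PN56 lenses labelled Klf4CN, against 381.5, 388 and 391 at E16.5. WT lenses had 235 and 239 at PN56, against 386, 434 and 462 at E16.5. Col5a1 fell in WT (log2 -0.81 ± 0.20, limma adjusted p = 0.00404), and in lenses labelled Klf4CN the value was -0.41 ± 0.20 (limma adjusted p = 0.102), which a second probe set above the filter put at -0.93 (limma adjusted p = 0.0071). PN56 Klf4CN replicate 1 was the higher adult array, and without it the value was -0.65 (limma adjusted p = 0.0273).

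The type I collagen genes, Col1a1 and Col1a2, which encode the main fibril of cornea, sclera and bone, were not called. Col1a1 had 82.0 and 21.0 in PN56 lenses labelled Klf4CN, against 52.7, 286 and 243 at E16.5, and 3.2 and 16.6 in PN56 WT lenses, against 22.3, 58.2 and 239 at E16.5. Its log2 differences were -1.54 ± 0.82 in lenses labelled Klf4CN (limma adjusted p = 0.133) and -1.84 ± 0.82 in WT (limma adjusted p = 0.0729), with wide intervals of -3.33 to 0.24 and -3.63 to -0.06 (95%). It was called lower in lenses labelled Klf4CN without E16.5 Klf4CN replicate 1 (-2.22, limma adjusted p = 0.0397) and in WT without E16.5 WT replicate 1 (-2.46, 0.0251). The second Col1a1 probe set had a positive WT value, 0.70 (limma adjusted p = 0.244). Col1a2 had 478 and 447 in PN56 lenses labelled Klf4CN, against 530, 1071 and 859 at E16.5, and 475 and 449 in PN56 WT lenses, against 308.5, 374 and 758 at E16.5. Its adult arrays lay close together and its embryonic arrays spread widely. The log2 differences were -0.75 ± 0.34 (limma adjusted p = 0.0824) in lenses labelled Klf4CN and 0.05 ± 0.34 (limma adjusted p = 0.909) in WT. Without E16.5 Klf4CN replicate 1 the value in lenses labelled Klf4CN was -1.03 (limma adjusted p = 0.0242), and without E16.5 WT replicate 3 it was -0.75 (0.0278), both called.

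Col2a1 encodes type II collagen, the fibril of cartilage and vitreous. Its signal was 163 and 114 in PN56 lenses labelled Klf4CN, against 55.8, 250.5 and 66.7 at E16.5. WT lenses had 338 and 271.5 at PN56, against 32.5, 191 and 35.2 at E16.5. Col2a1 rose in WT (log2 1.99 ± 0.65, limma adjusted p = 0.0202), and its value in lenses labelled Klf4CN was 0.39 ± 0.65 (limma adjusted p = 0.638). The difference between these age effects was -1.60 (95% interval -3.61 to 0.40, limma adjusted p = 0.359), so the genotypes were not shown to differ. The WT call was lost without E16.5 WT replicate 1 (1.63, limma adjusted p = 0.0673), without E16.5 WT replicate 3 (1.67, 0.0674) and without PN56 WT replicate 1 (1.84, 0.0992) or 2 (2.14, 0.0607). It was also lost with each array centred on its median (1.48, 0.0559) and with array weights (1.92, 0.0657).

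Col27a1, a fibrillar collagen of cartilage and developing epithelia, rose in lenses labelled Klf4CN. It had 287 and 196 there at PN56, against 44.1, 111 and 130 at E16.5, without overlap (log2 1.29 ± 0.46, limma adjusted p = 0.0316). WT lenses had 213.5 and 88.3 at PN56, against 72.3, 116 and 133 at E16.5, which overlapped (0.37 ± 0.46, limma adjusted p = 0.516). The call was lost without E16.5 Klf4CN replicate 1 (0.90), PN56 Klf4CN replicate 1 (1.03) or PN56 Klf4CN replicate 2 (1.55). It was also lost under quantile normalization (1.14, limma adjusted p = 0.0515), with each array centred on its median (0.95, 0.084) and with array weights (1.32, 0.0584). Col5a3, Col11a1 and Col11a2, further chains of types V and XI, were called in neither genotype. A second Col11a1 probe set above the filter had -0.65 in lenses labelled Klf4CN and 0.99 in WT, neither called. On the brightest probe sets the values of these genes lay between -0.09 and 0.46. Without PN56 WT replicate 1, Col11a1 was called higher in WT (1.94, limma adjusted p = 0.0176).

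**Figure D2:**
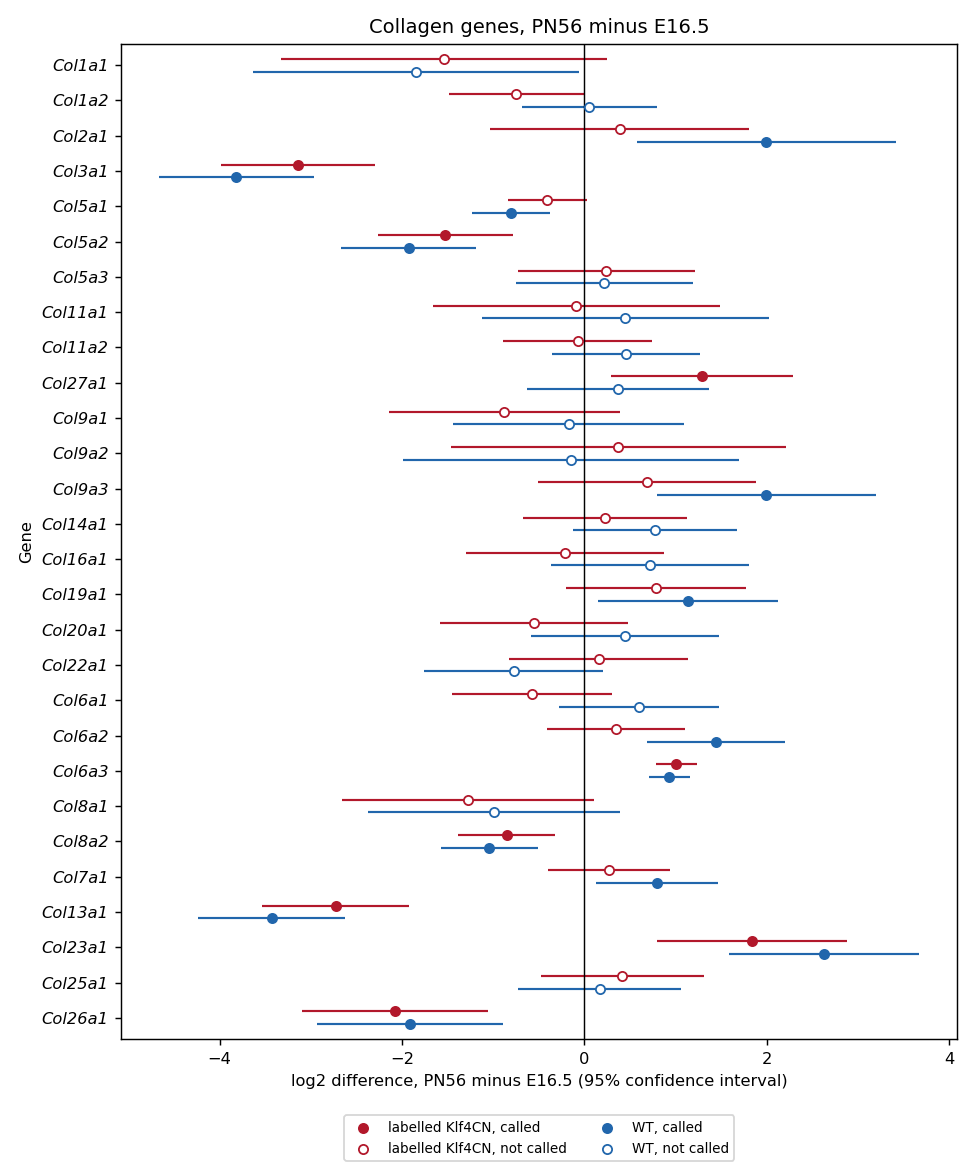
Log2 difference, PN56 minus E16.5, of the 28 tested collagens with 95% confidence intervals, lenses labelled Klf4CN above and WT below for each gene, filled where called. Col3a1, Col13a1, Col26a1, Col5a2 and Col8a2 lie left of 0 and Col23a1 and Col6a3 right of 0 in both genotypes.

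Of the FACIT collagens, 0 of 8 tested were called in lenses labelled Klf4CN and 2 of 8 rose in WT. Col9a3 encodes a chain of type IX, which coats type II fibrils. Its signal was 166.5 and 182 in PN56 lenses labelled Klf4CN, against 44.2, 191 and 116 at E16.5. In WT it was 284.5 and 294 at PN56, against 20.6, 104 and 86.4 at E16.5. The WT arrays did not overlap, and Col9a3 rose there (log2 2.00 ± 0.55, limma adjusted p = 0.00818), as did its second probe set above the filter (2.37, limma adjusted p = 0.0104). In lenses labelled Klf4CN its value was 0.69 ± 0.55 (limma adjusted p = 0.316), and the second probe set rose (2.43, limma adjusted p = 0.00974). The age effects differed by -1.31 on the brightest probe set (limma adjusted p = 0.376).

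Col9a1, another type IX chain, had 1925 and 1937 in PN56 lenses labelled Klf4CN, against 2291, 9656.5 and 2039.5 at E16.5. WT lenses had 2597.5 and 2758 at PN56, against 1749, 6126 and 2568.5 at E16.5. The adult arrays were close together within each genotype, while replicate 2 of each embryonic group stood far above the others. Log2 differences were -0.88 ± 0.58 (limma adjusted p = 0.224) and -0.17 ± 0.58 (limma adjusted p = 0.817).

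Col19a1, a FACIT collagen and the neighbour of Col9a1 on the chromosome, had 84.9 and 82.8 in PN56 lenses labelled Klf4CN, against 52.2, 23.9 and 56.0 at E16.5. WT lenses had 89.7 and 170 at PN56, against 72.2, 34.3 and 42.6 at E16.5. The E16.5 means, 49.7 in WT and 44.0 in lenses labelled Klf4CN, lay under the filter level. Col19a1 thus passed the filter through its PN56 signals, and signals under that level cannot be told from background here. Col19a1 was called higher in WT (log2 1.14 ± 0.45, limma adjusted p = 0.0483), and the value in lenses labelled Klf4CN was 0.78 ± 0.45 (limma adjusted p = 0.166). This call lay close to the threshold and was lost in 15 of the 22 alternatives. Among them were leaving out PN56 WT replicate 2 (0.73, limma adjusted p = 0.286), E16.5 WT replicate 2 (0.96) or 3 (1.07), and E16.5 Klf4CN replicate 1 or 3 or either PN56 Klf4CN array (1.14 each). In addition, another probe set, below the filter, had a WT value of -0.93. The other tested FACIT members, Col9a2, Col14a1, Col16a1, Col20a1 and Col22a1, ran between -0.56 and 0.37 in lenses labelled Klf4CN and between -0.78 and 0.77 in WT on their brightest probe sets, with 0 called. A second probe set of Col20a1 above the filter had 0.81 in lenses labelled Klf4CN (limma adjusted p = 0.283) and was called higher in WT (1.51, 0.0497). Without PN56 WT replicate 2, Col22a1 was called lower in WT (-1.49, limma adjusted p = 0.0165).

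Type VI collagen, the microfibril of most connective tissues, is built of the chains of Col6a1, Col6a2 and Col6a3. Col6a3 had signals of 7053 and 7081 in PN56 lenses labelled Klf4CN, against 3602, 3445 and 3480 at E16.5. WT lenses had 7463 and 7379 at PN56, against 4390, 3432 and 3898 at E16.5. The ages did not overlap, and Col6a3 rose by a log2 difference of 1.01 ± 0.10 in lenses labelled Klf4CN (limma adjusted p = 6.32e-06) and 0.93 ± 0.10 in WT (limma adjusted p = 1.09e-05).

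Col6a2 rose in WT on both of its probe sets. The brighter one read 189 and 206 in PN56 lenses labelled Klf4CN, against 156, 153 and 144.5 at E16.5 (log2 0.35 ± 0.35, limma adjusted p = 0.418). WT lenses had 318 and 445 at PN56, against 73.3, 130 and 213 at E16.5 (1.45 ± 0.35, limma adjusted p = 0.00362). The second probe set gave -0.29 in lenses labelled Klf4CN (limma adjusted p = 0.385) and 2.21 in WT (limma adjusted p = 2.03e-05). Col6a1, its neighbour on the chromosome, had 74.3 and 78.0, against 113, 138 and 113, in lenses labelled Klf4CN, and 75.0 and 173, against 43.9, 96.4 and 80.6, in WT. Its values were -0.57 in lenses labelled Klf4CN and 0.60 in WT, with 0 calls, and without PN56 WT replicate 1 it was called higher in WT (1.13, limma adjusted p = 0.0485).

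Of the network-forming collagens, Col8a2 fell. It encodes a chain of type VIII collagen, a component of Descemet membrane. Col8a2 had 183 and 123 in PN56 lenses labelled Klf4CN, against 275, 299 and 281 at E16.5, and 142 and 154.5 in PN56 WT lenses, against 403, 299 and 275 at E16.5. The groups did not overlap. The log2 difference was -0.85 ± 0.25 in lenses labelled Klf4CN (limma adjusted p = 0.0112), or -0.60 without PN56 Klf4CN replicate 2 (limma adjusted p = 0.107), and -1.04 ± 0.25 in WT (limma adjusted p = 0.00326). Col8a1, the other type VIII chain, had values of -1.28 ± 0.63 in lenses labelled Klf4CN and -0.99 ± 0.63 in WT on its brightest probe set, not called. A second Col8a1 probe set above the filter fell in both, with values of -1.15 in lenses labelled Klf4CN (limma adjusted p = 0.0326) and -1.92 in WT (0.00174). Without E16.5 or PN56 Klf4CN replicate 1 the brightest probe set was called lower in lenses labelled Klf4CN too (-1.85, limma adjusted p = 0.0242, and -2.33, 0.0145).

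Col7a1 encodes the anchoring fibril that ties epithelia to the matrix. Its signal was 108 and 195 in PN56 lenses labelled Klf4CN, against 101, 115 and 142 at E16.5 (log2 0.27 ± 0.31, limma adjusted p = 0.48). WT lenses had 232 and 219 at PN56, against 142, 106 and 123 at E16.5 (0.80 ± 0.31, limma adjusted p = 0.0416). The WT groups did not overlap, and the call was lost in 14 of the 22 alternatives, with 0.28 after median centring. Leaving out any single E16.5 array or either PN56 WT array lost it, at values of 0.70 to 0.89.

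The transmembrane collagens moved in both directions. Col13a1 encodes type XIII collagen, a membrane protein of cell contacts. It had 86.2 and 106.5 in PN56 lenses labelled Klf4CN, against 710, 550 and 974.5 at E16.5, and 19.8 and 84.1 in PN56 WT lenses, against 653, 680 and 560 at E16.5. Every adult array was far below every embryonic one. Col13a1 fell by 2.73 in lenses labelled Klf4CN (SE 0.37; limma adjusted p = 5.92e-05) and fell by 3.43 in WT (SE 0.37; limma adjusted p = 7.89e-06).

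Col23a1 encodes type XXIII collagen, another membrane-spanning collagen. Its signal was 791 and 579 in PN56 lenses labelled Klf4CN, against 156, 358 and 96.3 at E16.5. WT lenses had 810 and 958 at PN56, against 92.7, 253 and 87.9 at E16.5. Both ages were apart in both genotypes, and replicate 2 was the highest array of each embryonic group. Col23a1 rose by 1.84 ± 0.48 in lenses labelled Klf4CN (limma adjusted p = 0.00626) and by 2.63 ± 0.48 in WT (limma adjusted p = 0.00054). Both further probe sets of Col23a1 rose in both genotypes, by 1.33 to 2.07. Without PN56 Klf4CN replicate 1 the value in lenses labelled Klf4CN was 1.62 (limma adjusted p = 0.056). Col25a1, expressed by neurons, was not called, with values of 0.41 and 0.17 on its brightest probe set. A second Col25a1 probe set above the filter had the opposite sign. It gave -0.87 in lenses labelled Klf4CN (limma adjusted p = 0.267) and -1.345 in WT (limma adjusted p = 0.0886).

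Col26a1, which encodes type XXVI collagen, fell. It had 16.2 and 15.1 in PN56 lenses labelled Klf4CN, against 144, 62.9 and 172 at E16.5 (log2 -2.08 ± 0.47, limma adjusted p = 0.00249). WT lenses had 19.2 and 12 at PN56, against 114.5, 119 and 77.5 at E16.5 (-1.91 ± 0.47, limma adjusted p = 0.00398). The ages did not overlap in either genotype. Its PN56 signals all lay under the filter level of 54.06, so Col26a1 passed the filter through its E16.5 signals. Such low signals cannot be told from background here. A second probe set below the filter had the opposite sign, and with the mean of the probe sets the values were -0.40 and -0.62, not called.

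Of the tested collagens, 7 were called in the same direction in both genotypes: Col3a1, Col5a2, Col8a2, Col13a1 and Col26a1 fell, and Col6a3 and Col23a1 rose. They were 87.5% of the collagens called in lenses labelled Klf4CN and 53.8% of those called in WT, beside 78.2% and 73.2% over all genes called. The difference of the age effect between genotypes was called for 0 of the 28 (1 at an unadjusted p under 0.05, Col6a2), where 4.61% of all genes were called.

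The bases upstream of 4 of these genes are shown because 2 of them, Col3a1 and Col13a1, fell and the other 2, Col23a1 and Col6a3, rose with age in both genotypes. Each is the 250 bases before the transcription start, 5' to 3' on the gene's strand, from RefSeq on GRCm38.p6, and capitals mark CACCC or its reverse complement GGGTG, the core letters that Kruppel-like factors such as Klf4 are known to bind. The windows are chr1:45311288-45311537 (plus strand), chr10:61979109-61979358 (minus strand), chr11:51289670-51289919 (plus strand) and chr1:90843972-90844221 (minus strand).
Col3a1: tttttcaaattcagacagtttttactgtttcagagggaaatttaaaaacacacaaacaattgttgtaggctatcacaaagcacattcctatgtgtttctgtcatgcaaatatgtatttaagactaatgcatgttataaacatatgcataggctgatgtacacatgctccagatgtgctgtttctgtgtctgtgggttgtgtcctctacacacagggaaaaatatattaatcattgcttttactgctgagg
Col13a1: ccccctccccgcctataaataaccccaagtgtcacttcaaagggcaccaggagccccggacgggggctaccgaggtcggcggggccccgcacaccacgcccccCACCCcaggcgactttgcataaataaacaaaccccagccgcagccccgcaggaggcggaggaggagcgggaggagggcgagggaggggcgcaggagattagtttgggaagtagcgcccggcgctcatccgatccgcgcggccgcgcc
Col23a1: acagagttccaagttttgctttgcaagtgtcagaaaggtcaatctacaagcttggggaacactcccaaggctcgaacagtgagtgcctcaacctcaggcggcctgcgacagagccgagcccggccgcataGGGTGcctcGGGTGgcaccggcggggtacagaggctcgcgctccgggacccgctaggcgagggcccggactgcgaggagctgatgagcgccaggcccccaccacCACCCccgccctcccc
Col6a3: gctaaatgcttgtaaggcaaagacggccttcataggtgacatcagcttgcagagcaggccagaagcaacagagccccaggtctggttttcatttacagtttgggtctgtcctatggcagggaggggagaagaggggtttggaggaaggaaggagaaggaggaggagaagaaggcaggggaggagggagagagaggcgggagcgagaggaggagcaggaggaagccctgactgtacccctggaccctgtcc
The Col23a1 window held 3 matches and the Col13a1 window 1, and the Col3a1 and Col6a3 windows held 0. The letters were in a window of each direction and missing from a window of each direction. Over all members with a RefSeq window (28 windows of 26 genes), 60.7% held CACCC or GGGTG, beside 52% of 32851 windows of all genes. GGGCGG, the GC box, on either strand was in 60.7% of the collagen windows and 32.7% of all windows, and TATAAA on either strand in 17.9% and 12.4%. CACCC and GGGCGG were counted separately and can overlap. No window was used for Col9a3, Col2a1, Col26a1, Col14a1, Col22a1, Col1a1, Col12a1 and Col5a2. A match is a description of the letters and not a site.

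The falls in Col3a1, Col5a2, Col8a2, Col13a1 and Col26a1 came with falls of vessel markers in the same samples. Of all genes, 30.8% were called lower in lenses labelled Klf4CN and 30.9% in WT, and 22.3% and 25.8% were called higher. All 9 endothelial markers, all called, fell in both genotypes, with a median log2 difference of -3.26 in lenses labelled Klf4CN and -3.14 in WT, and their summed signal was 504 and 581.8 at PN56 in lenses labelled Klf4CN and 450 and 742 in WT, against 4946.5 to 8088 on the E16.5 arrays. Pecam1, an endothelial adhesion molecule, was 37.3 and 10 in PN56 lenses labelled Klf4CN, and 4.3 and 21.4 in PN56 WT lenses, against 190 to 293 at E16.5. Of 5 tested pericyte and smooth muscle markers, 4 fell in each genotype, and 6 of 9 macrophage markers fell in lenses labelled Klf4CN and 8 of 9 in WT. Whole lenses are bulk samples, in which fewer cells of a type and less RNA per cell cannot be told apart. Of 9 fibroblast and ocular mesenchyme markers tested, 3 rose and 2 fell in lenses labelled Klf4CN, and 4 rose and 3 fell in WT, among them Prrx1 (2.85 and 2.90) and Pdgfra (-1.35 and -1.04). On their brightest probe sets Col23a1 and Col6a3 rose in both genotypes and Col27a1 in lenses labelled Klf4CN. Col2a1, Col9a3, Col19a1, Col6a2 and Col7a1 rose in WT. Of 10 tested retinal progenitor and neuron markers, 1 rose and 4 fell in lenses labelled Klf4CN (median log2 difference -1.46). In WT 1 of them rose and 1 fell (median -0.14). Of the photoreceptor markers 6 of 7 rose in lenses labelled Klf4CN and 7 of 7 in WT, with summed signals of 12771 and 3694 at PN56 in lenses labelled Klf4CN and 5531 and 5192 in WT, against 216 to 465 at E16.5. Of 7 tested pigment cell markers, 2 rose and 1 fell in lenses labelled Klf4CN (median log2 difference -0.04), and 5 rose in WT (median 1.87). The summed signal of the 8 listed was 5636 and 5699 at PN56 in lenses labelled Klf4CN, against 6812, 9321 and 3510 at E16.5, and 9276 and 11092 in PN56 WT lenses, against 2577.5, 2667 and 3638 at E16.5. The part of these markers in the collagen values was not tested.

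The genes that make, process and read collagen moved with age in both directions, among lists taken for their known roles. Of 20 tested genes of collagen modification and folding in the endoplasmic reticulum, 7 rose and 9 fell in lenses labelled Klf4CN, and 8 rose and 6 fell in WT. Over all genes, 22.3% were called higher and 30.8% lower in lenses labelled Klf4CN, and 25.8% and 30.9% in WT. Serpinh1, the collagen chaperone HSP47, had 3710 and 3322 in PN56 lenses labelled Klf4CN and 2306 and 2891 in PN56 WT lenses, against 7245 to 8622 at E16.5. It fell by 1.18 in lenses labelled Klf4CN and by 1.64 in WT (limma adjusted p = 6.3e-06 and 3.4e-07). P4ha2, a catalytic subunit of prolyl 4-hydroxylase, rose by 1.67 and 1.78 on the log2 scale, and P3h2, a prolyl 3-hydroxylase, fell (-1.77 and -2.91). Of 7 genes of propeptide removal and cross-linking, Pcolce, the procollagen C-proteinase enhancer, rose by 1.47 and 1.92, and the lysyl oxidase relative Loxl1 fell (-1.57 and -1.22). Lox, lysyl oxidase, fell by 1.73 in WT. Of 10 receptors and collagen-degrading proteases, Ddr2, a receptor for fibrillar collagen, rose by 2.30 and 3.62, Itgb1, the integrin beta-1 chain, by 1.08 and 0.40, and Mmp14, a membrane collagenase, fell (-1.72 and -1.68). In each pair of values the first is from lenses labelled Klf4CN and the second from WT.

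The 8 basement membrane collagens are the family that was left out by rule. With age 2 rose and 6 fell in lenses labelled Klf4CN, beside 22.3% higher and 30.8% lower over all genes. In WT 2 rose and 4 fell, beside 25.8% and 30.9%. Col4a3 and Col4a4, chains of mature basement membranes, rose by 5.67 and 4.53 in lenses labelled Klf4CN and by 5.18 and 4.67 in WT.

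The comparison of genotypes at PN56 asked what differs in the adult lens labelled Klf4CN. Of the 28 tested collagens 1 was called higher and 0 lower (5 at an unadjusted p under 0.05), where 13.1% of all genes were called, 6.08% higher and 6.99% lower. The share of collagens called was below that of all genes, but it rests on 1 call among 28, with no test of that difference. The median log2 difference was -0.03 over the collagens and -0.06 over all genes, and the groups did not overlap for 6 collagens higher and 10 lower, beside 21.6% and 29.1% of all genes.

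The one call was Col3a1, at 36.3 and 109 in PN56 lenses labelled Klf4CN against 3.3 and 27.7 in WT. The log2 difference was 1.48 ± 0.43 (95% interval 0.55 to 2.40, limma adjusted p = 0.04). All 4 signals were low for this probe set, whose E16.5 signals were 371 or more. Of these PN56 signals, 36.3 in lenses labelled Klf4CN and both in WT lay under the filter level. Col3a1 passed the filter through its E16.5 signals, and signals under that level cannot be told from background here. The dimmer probe set went the other way, with 5.0 and 4.5 in lenses labelled Klf4CN against 75.0 and 31.1 in WT (log2 -1.66, limma adjusted p = 0.0376 with every probe set tested). With the mean of both probe sets the Col3a1 value was -0.09. The call was also lost in 14 further alternatives, among them without PN56 WT replicate 1 (0.89, limma adjusted p = 0.215) and without PN56 Klf4CN replicate 2 (0.85, limma adjusted p = 0.254). Leaving out any single E16.5 array kept the value and put the adjusted p between 0.0577 and 0.0637.

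**Figure D3:**
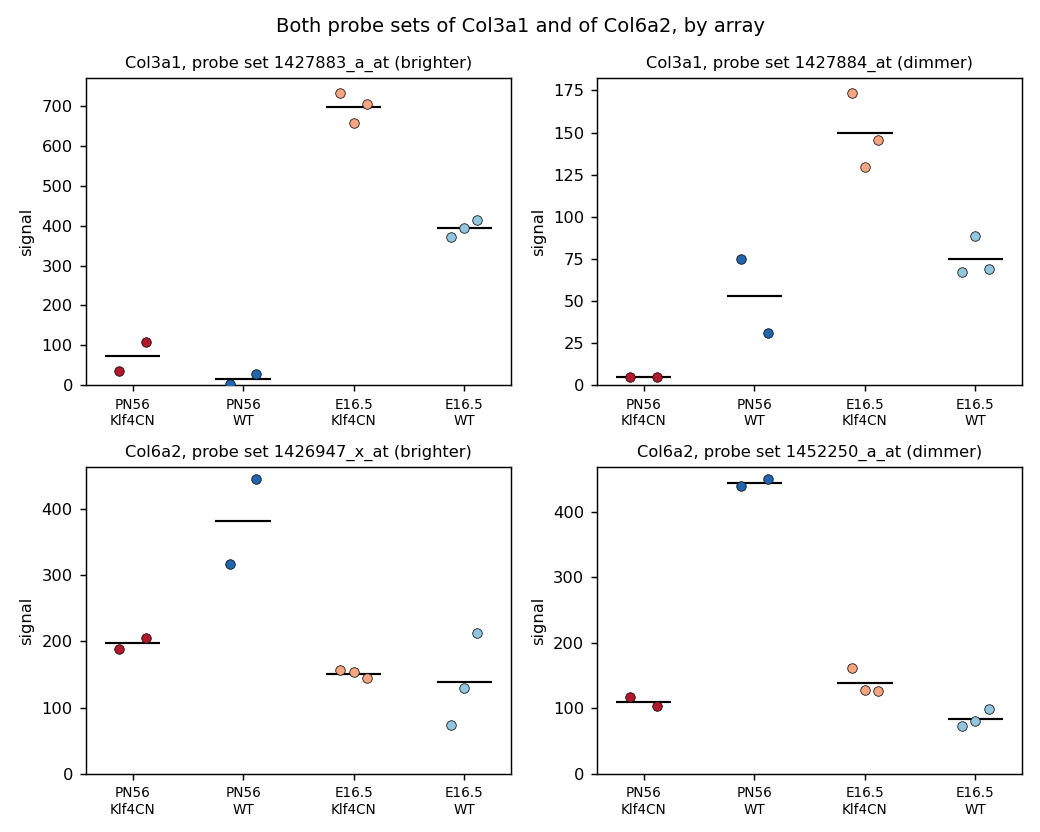
Signal of both probe sets of Col3a1 (upper row) and Col6a2 (lower row) by group, each point an array and each bar the group mean. At PN56 the brighter Col3a1 probe set is higher and the dimmer one lower in lenses labelled Klf4CN, while both Col6a2 probe sets are lower there than in WT.

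Col6a2 differed more between genotypes on its second probe set than on the brightest. On the brightest, an Affymetrix x_at set, a design that can share probes with related sequences, the signals were 189 and 206 in PN56 lenses labelled Klf4CN against 318 and 445 in WT (log2 -0.88 ± 0.38, limma adjusted p = 0.152). On the second they were 116.5 and 104 against 440 and 449.5 (-1.87, limma adjusted p = 0.00232 with every probe set tested). At E16.5 the second probe set had 161, 129 and 126.5 in lenses labelled Klf4CN against 72.3, 80.8 and 98.2 in WT (0.63, limma adjusted p = 0.99996). On both probe sets the PN56 groups did not overlap. With the mean of the probe sets Col6a2 was lower at PN56 by a log2 difference of -1.37 (limma adjusted p = 0.0136).

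Of the other members, Col16a1, a FACIT collagen, had 35.4 and 129 in PN56 lenses labelled Klf4CN against 185 and 252 in WT (-1.43 ± 0.55, limma adjusted p = 0.106), and was called without PN56 Klf4CN replicate 2 (-2.18, 0.0435). Col22a1, a collagen of tissue junctions, had 129 and 117 against 18.9 and 78.6 (1.27 ± 0.49, limma adjusted p = 0.112). Col13a1 had 86.2 and 106.5 against 19.8 and 84.1 (0.90 ± 0.41, limma adjusted p = 0.166). The first was wholly lower and the other pair wholly higher in lenses labelled Klf4CN, on low signals, and none of these passed the test. Also lower on both arrays labelled Klf4CN than on both WT arrays were Col2a1 (-1.06), Col9a3 (-0.68), Col7a1 (-0.57) and Col19a1 (-0.49). So were Col9a1 (-0.47), Col14a1 (-0.41) and Col23a1 (-0.37), and limma adjusted p for all of these lay between 0.288 and 0.69. On their brightest probe sets Col1a1 (1.27), Col5a2 (0.52) and Col5a1 (0.27) were wholly higher, with limma adjusted p between 0.392 and 0.462. For Col5a1 the nearest arrays were 239.9 in lenses labelled Klf4CN and 239.1 in WT. A second Col5a1 probe set overlapped, at 208 and 190 against 195 and 259 in WT. The other Col5a2 probe set was wholly lower, at 7.4 and 3.9 against 10.6 and 7.9 in WT, all very low signals. A second Col1a1 probe set above the filter had a value of -1.04 (limma adjusted p = 0.236). For Col9a3 a second probe set above the filter had a value of the opposite sign, 0.57 (limma adjusted p = 0.676). The pigment cell markers were lower on the arrays labelled Klf4CN, with a median of -0.76. Of 7, 6 were lower without overlap, beside 29.1% of all genes. Of them 0 were called (2 at an unadjusted p under 0.05), and their part in the collagen values was not tested. Col6a3 had 7053 and 7081 against 7463 and 7379, a difference of -0.07 (95% interval -0.32 to 0.18). For Col1a2 the value was 0.00 (95% interval -0.81 to 0.81) and for Col8a2 0.02 (95% interval -0.57 to 0.61).

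In the lists, Serpinh1 (log2 0.44, limma adjusted p = 0.049) and P3h2 (1.06, 0.026) were higher and P4ha1, a catalytic prolyl 4-hydroxylase subunit (-0.57, 0.041), and Ppib, cyclophilin B (-0.44, 0.0093), lower in PN56 lenses labelled Klf4CN than in WT, of 20 tested. Loxl1 (-0.79, 0.015) and Pcolce (-0.47, 0.034) were lower, of 7. Mmp2, a gelatinase that cuts denatured collagen (1.85, 0.033), was higher and Ddr1, a collagen receptor (-0.39, 0.046), lower, of 10. Of the basement membrane collagens Col4a1 (-0.90, 0.002) and Col4a5 (-0.68, 0.011) were lower, of 8 tested. Of 11 lens markers 8 were lower. Over all genes, 6.08% were called higher and 6.99% lower in this comparison.

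**Figure D4:**
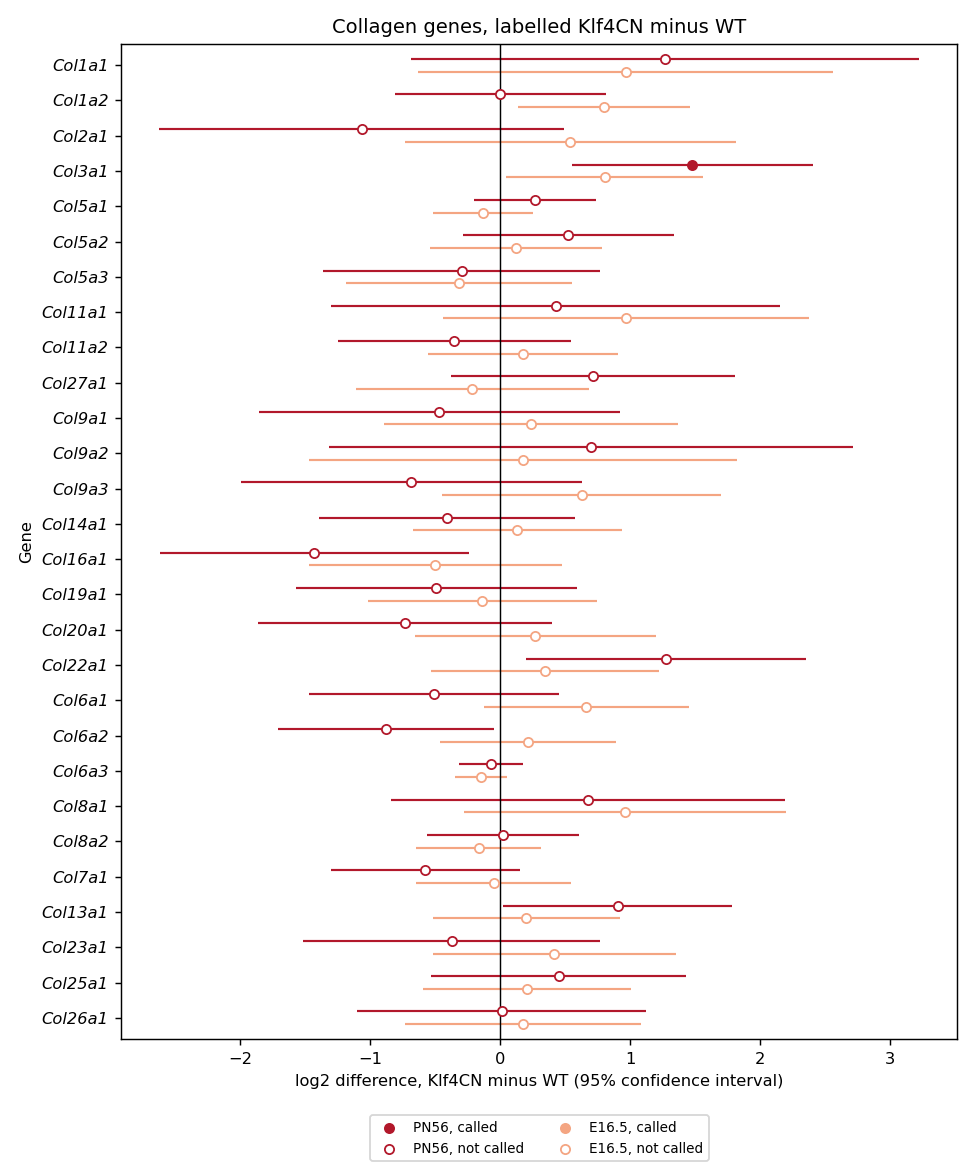
Log2 difference, Klf4CN minus WT, of the 28 tested collagens with 95% confidence intervals, PN56 above and E16.5 below for each gene, filled where called. Col3a1 at PN56 is the only filled point, and most intervals span 0.

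The comparison of genotypes at E16.5 asked the same of the embryonic lens. Of the 28 tested collagens 0 were called by limma (2 at an unadjusted p under 0.05, Col1a2 and Col3a1), where 0.00744% of all genes, 1 gene, was called. The values were positive for 20 of 28, with a median of 0.20 beside 0.00 over all genes, and the groups did not overlap for 2 collagens higher and 1 lower, beside 5.24% and 6.65% of all genes. Col3a1 had 733.5, 658 and 706 in lenses labelled Klf4CN against 371, 395.5 and 414 in WT, without overlap (log2 0.80 ± 0.35, 95% interval 0.05 to 1.56, limma adjusted p = 0.9997). Its dimmer probe set had 174, 130 and 145 against 67.2, 88.7 and 69.0 (0.86, limma adjusted p = 0.99996). Both probe sets were thus higher on all 3 arrays labelled Klf4CN. Col6a1 was likewise apart, with 113, 138 and 113 against 43.9, 96.4 and 80.6 (0.66 ± 0.36, limma adjusted p = 0.9997), and Col5a3 was wholly lower, with 41.6, 45.5 and 46.1 against 61.6, 56.4 and 59.9 (-0.32 ± 0.40, limma adjusted p = 0.9997).

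Single arrays set much of the spread at E16.5. Klf4CN replicate 2 had the highest E16.5 signal for 11 of the 28 tested collagens, beside 19.2% of all genes, and WT replicate 1 the lowest for 12 of 28, beside 19.8%. Those with the highest signal on Klf4CN replicate 2 included Col9a1 (9656.5 against 2291 and 2039.5 on the other arrays labelled Klf4CN), Col2a1 (250.5 against 55.8 and 66.7) and Col23a1 (358 against 156 and 96.3), and WT replicate 2 was the highest WT array for the same genes (6126, 191 and 253). The 10 retinal progenitor and neuron markers had summed signals of 6406, 15801 and 9145 on the arrays labelled Klf4CN and 1999, 9181 and 5412 on the WT arrays. The brightest of these markers, Sox2, varied little, at 1678, 1798.5 and 1525.5 against 1611, 1838 and 1536. Atoh7, the next, had 1741, 5792 and 2034 against 116, 3972 and 1248. Nefl, the third, had 896, 1796 and 1722 against 8.9, 683 and 638. Not every marker was highest in WT on replicate 2, as Nefm had 53.0, 329 and 351 there. The pigment cell markers had summed signals of 6812, 9321 and 3510 on the arrays labelled Klf4CN and 2577.5, 2667 and 3638 on the WT arrays, again the highest on Klf4CN replicate 2. Of 7 tested, 6 were positive (median 1.85), with 0 called by limma and 5 at an unadjusted p under 0.05. Col1a1, Col1a2 and Col8a1 were instead high on Klf4CN replicates 2 and 3 and WT replicate 3. The part of the marked cells in these values was not tested. Without both WT replicate 1 and Klf4CN replicate 2, 0 collagens were called at E16.5.

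**Figure D5:**
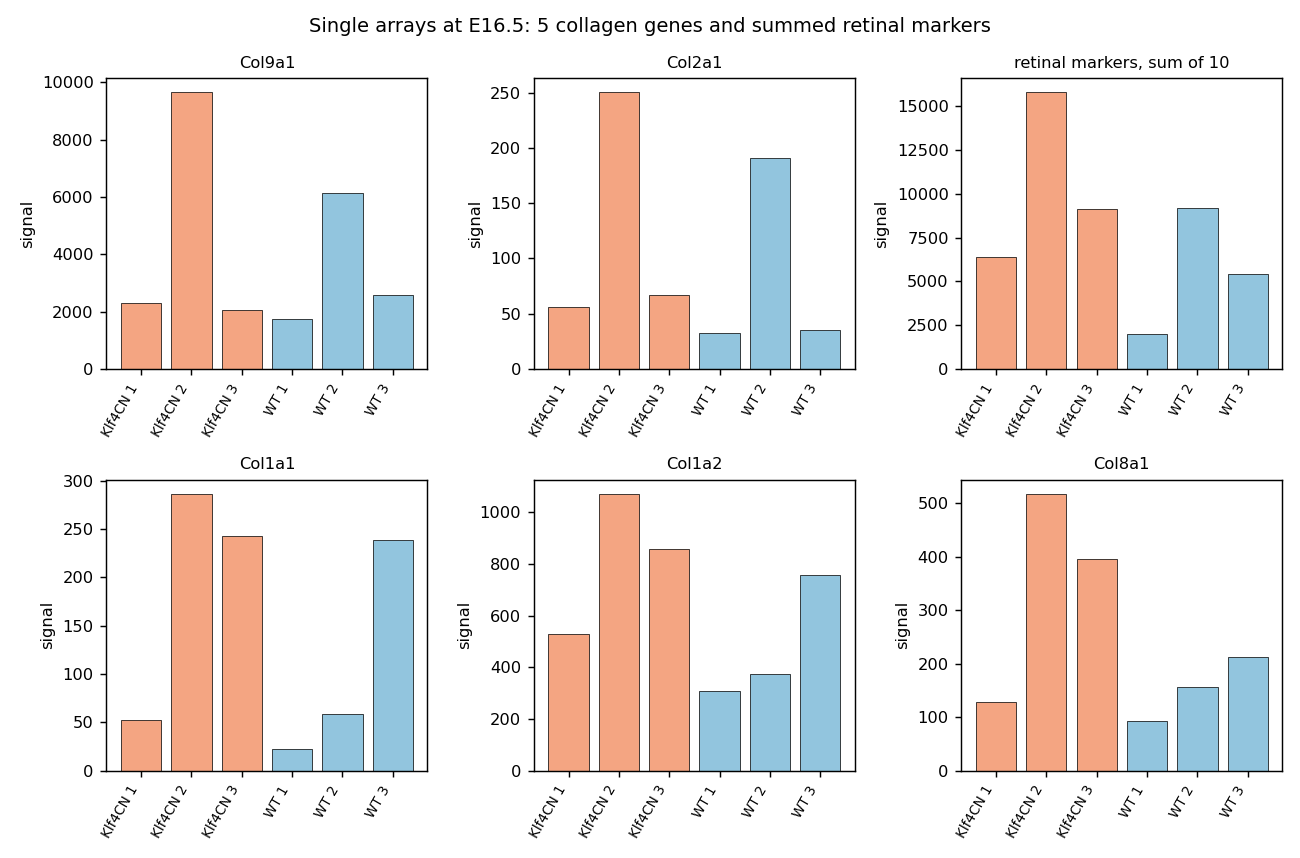
Signal on each E16.5 array of Col9a1 and Col2a1 beside the summed signal of 10 retinal progenitor and neuron markers (upper row), and of Col1a1, Col1a2 and Col8a1 (lower row). Col9a1, Col2a1 and the summed retinal markers peak on Klf4CN replicate 2 and, among WT arrays, on replicate 2. The lower row peaks on Klf4CN replicates 2 and 3 and WT replicate 3.

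The 6 members under the filter are given by their range over the 10 arrays. Col24a1, a fibrillar chain, ranged from 1.3 to 56.1, Col10a1, the collagen of hypertrophic cartilage, from 8.0 to 53.8, and Col17a1, a hemidesmosome collagen of epithelia, from 2.8 to 36.8. Col17a1 had 3.6 and 2.9 in PN56 lenses labelled Klf4CN and 5.4 and 2.8 in WT, against 16.6 to 36.8 at E16.5. With no filter Col17a1 was called lower with age in lenses labelled Klf4CN (-1.13, limma adjusted p = 0.0207) and in WT (-1.31, 0.00881). Col12a1, a FACIT collagen, ranged from 11.9 to 143, and Col6a4 and Col6a5, further type VI chains, from 5.0 to 69.7 and from 4.5 to 86.6. With no filter Col6a5 was called higher with age in lenses labelled Klf4CN (1.65, limma adjusted p = 0.0109). No detection call was used here, so such signals cannot be told from background.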

How the data were processed

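The deposited values were linear intensities, 1 per probe set and array, made with GCOS 1.4 per the submitters' processing notes; background correction and scaling are not given in the sources here. Each array's mean after trimming 2% at each end was close to 500.0, so the authors' values were already scaled between arrays. Of 45101 probe sets, 64 were controls, 34945 carried 1 gene symbol, 932 several and 9160 none; 34741 matched RefSeq names of GRCm38.p6 and 0 changed.

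Signals were tested as log2(signal + 16), which understates changes of dim genes. One limma fit (version 3.58.1, R 4.3.3) held all 10 arrays and 4 group means, with eBayes and an intensity trend; tests were two-sided and adjusted (Benjamini-Hochberg) over 13444 genes, and genes under 0.05 were called. Values are ± SE. Where each probe set is named, every probe set above the filter was tested. The fit was tested on simulated data. Genes were named by class: members called in any comparison, then the 10 of highest mean, and the others by range. The members and gene lists were chosen with earlier results of these data known. Alternatives are given in the closing section. Listed genes without a probe set for 1 gene were not analysed here.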

Additional observations from a re-analysis of the deposited data

Results flagged for a closer look

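The dimmer probe set of Col3a1 had a Klf4CN effect at PN56 that differed from that at E16.5 by -2.52 on the log2 scale (SE 0.59; limma adjusted p = 0.0392 over every probe set above the filter): 5.0 and 4.5 in PN56 lenses labelled Klf4CN against 75.0 and 31.1 in WT, and 174, 130 and 145 against 67.2, 88.7 and 69.0 at E16.5. On the brighter probe set the same difference was 0.67 (limma adjusted p = 0.536).

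The dimmer probe set of Col6a2 differed by -2.50 (SE 0.37; limma adjusted p = 0.00561), lower in lenses labelled Klf4CN on both arrays at PN56 and higher on all 3 at E16.5. On the brighter probe set the difference was -1.10 (limma adjusted p = 0.233). Both flags rest on the test of the difference, and what parts the probe sets was not tested.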

How the results depend on the processing

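Of 22 called member comparisons, 13 were called in the same direction in all alternatives run and 9 were not; of 118 not called, 17 were called under some alternative, as were 3 comparisons of untested members with no filter. At PN56 the count of collagens called between genotypes (1) was 0 with offset 64, no filter, no intensity trend, array weights or only the compared groups, and with E16.5 WT replicate 1 and Klf4CN replicate 2 left out together, an alternative chosen after seeing the data. It ran from 0 to 3 with single arrays left out, the 3 (Col3a1, Col13a1 and Col22a1) without PN56 WT replicate 2. Under the mean of probe sets Col3a1 at PN56 between genotypes was -0.090, and 1 collagen (Col6a2) was called in the difference between ages (as reported 0). With the filter at the 60th percentile (155.96), fewer genes were tested, 11 collagens among them. Of these 11, 8 were called with age in WT (as reported 13 of 28) and 6 in lenses labelled Klf4CN (as reported 8 of 28). With single arrays left out, the counts with age ran from 10 to 13 in WT and from 6 to 10 in lenses labelled Klf4CN, and stayed 0 for E16.5 and for the difference. Median centring moved the share of higher calls over all genes with age from 42.1% to 23.4% in lenses labelled Klf4CN and from 45.5% to 20.8% in WT, and at PN56 between genotypes from 46.5% to 72.0%.

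The replicate numbers are not stated to pair samples. Deviations of same-numbered arrays correlated at 0.27, 0.24 and 0.05 at E16.5 and 0.04 at PN56. Those of arrays with different numbers ran from -0.28 to 0.06 at E16.5 and were at -0.04 at PN56. Whether same-numbered samples were handled together cannot be told from these values. Every array except E16.5 WT replicate 3 correlated best with its own number. At PN56 this follows from the sign of 0.04 alone, because the 2 arrays of a group deviate as mirror images. With the replicate block 2 collagens were called at PN56 (Col16a1 lower beside Col3a1). With age 11 were called in WT and 9 in lenses labelled Klf4CN, and 0 in the other 2 comparisons. Of the 28 tested collagens 17 lay under the 60th percentile of signal. With 1 PN56 array left in a group, it was assumed to vary like the others.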
